A study of Mus musculus with 6 samples.

Results

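Genes that make, break down, carry or sense retinoic acid were followed in the pharyngeal arches of mouse embryos without *Pax9*. The 10 genes were chosen by name, *Aldh1a2*, *Rdh10*, *Dhrs3*, *Cyp26a1*, *Cyp26b1*, *Cyp26c1*, *Crabp1*, *Crabp2*, *Rarb* and *Rarg*, and all 10 were among the 14647 genes of the deposited table. RNA-seq had been made from the dissected pharyngeal arch region of E9.5 embryos on a C57Bl/6J background, cut behind the first arch and at the base of the heart. There were 3 *Pax9*-null (*Pax9*-/-, homozygous for a null allele in every cell) and 3 wild-type (*Pax9*+/+) embryos, giving 6 libraries. *Pax9* encodes a transcription factor of the pharyngeal endoderm, and the null embryos served in the study as a model of arch artery defects.

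Retinoic acid is made from vitamin A. Retinol dehydrogenases such as Rdh10 oxidise retinol to retinaldehyde, Dhrs3 reduces retinaldehyde back to retinol, and retinaldehyde dehydrogenases, chiefly Aldh1a2 in the embryo, oxidise retinaldehyde to retinoic acid. Cyp26 enzymes break retinoic acid down, Crabp proteins bind it in the cytoplasm, and Rar and Rxr proteins bind DNA as pairs and switch target genes when retinoic acid is bound. In the embryo the mesoderm behind the pharynx makes retinoic acid, and the signal patterns the caudal pharyngeal arches, the hindbrain and the heart tube. The question put to these genes was whether their RNA differed in the absence of *Pax9*.

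Values are log2 RPKM, that is the logarithm of reads scaled to gene length and library size, and an RPKM value is the same level on a linear scale. Differences were tested with limma on the 13547 genes that averaged 0.5 RPKM or more, two-sided, and genes with a Benjamini-Hochberg adjusted *P* of at most 0.1, the threshold of the study, were called. In this test 26.7% of the tested genes were called, 14.7% higher and 12% lower in *Pax9*-null embryos. *Pax9* itself, the check of the labels, had 43, 37 and 39 reads in the *Pax9*-null and 99, 102 and 123 reads in the wild-type libraries (log2 fold change -1.32, SE 0.19, limma adjusted *P*=0.0155). Some libraries differed in the markers of other tissues. The summed level of 5 of 5 primitive erythroid markers was 4741 and 4310 RPKM in *Pax9*-null replicates 1 and 3, 2565 RPKM in *Pax9*-null replicate 2 and 2327 to 2416 RPKM in the wild-type libraries, and 2 of the 5 were called higher. The 8 of 8 neuron markers had lower means in *Pax9*-null embryos, 1 of them called, with a sum of 67.0 to 93.6 RPKM against 91.0 to 179 RPKM. Wild-type replicate 3 had little heart RNA, with a summed level of 5 cardiomyocyte markers of 45.8 RPKM against 441 to 720 RPKM in the others. Wild-type replicate 1 had the lowest sum of 9 neural tube progenitor markers (63.9 RPKM against 94.7 to 113) and the highest sum of 5 endothelial markers (82.6 against 39.8 to 53.9). The pharyngeal endoderm markers, 7 of 7 of which were detected, had a sum of 50.1 to 60.7 RPKM in *Pax9*-null and 47.7 to 58.4 RPKM in wild-type libraries. *Epcam* made up most of this sum, and of the 7 genes 3 were lower and 4 higher in *Pax9*-null embryos. By limma 0 of 7 were called and 2 had an unadjusted *P* of at most 0.05, both lower. These were *Pax1* (log2 fold change -0.74, limma adjusted *P*=0.1009), without overlap of the genotypes, and *Cdh1* (-0.53, limma adjusted *P*=0.134), with overlap. The largest rise was that of *Nkx2-5* (0.96). It had 0.34 RPKM in wild-type replicate 3, the library with little heart RNA, and at least 3.62 RPKM in the others. The sum therefore does not show that the endoderm genes were unchanged.

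None of the 10 genes was called. By limma 0 of 10 reached an adjusted *P* of 0.1 or less, and 0 of 10 an unadjusted *P* of 0.05 or less, where 26.7% of all tested genes were called. The smallest adjusted *P* was 0.190, for *Cyp26c1*. Of the 10 genes, 6 were lower and 4 higher in *Pax9*-null embryos, and their log2 fold changes lay between -0.42 and 0.17 with a median of -0.16, against a median of -0.0012 over all tested genes. The 3 libraries of one genotype lay above the 3 of the other for 1 gene, *Rdh10*, while this was so for 41.9% of the tested genes. A *P* above the threshold does not show that the levels were alike, so the 95% interval of each difference is given below. In whole tissue, fewer cells of a type and less RNA per cell cannot be told apart.

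**Figure D1:**
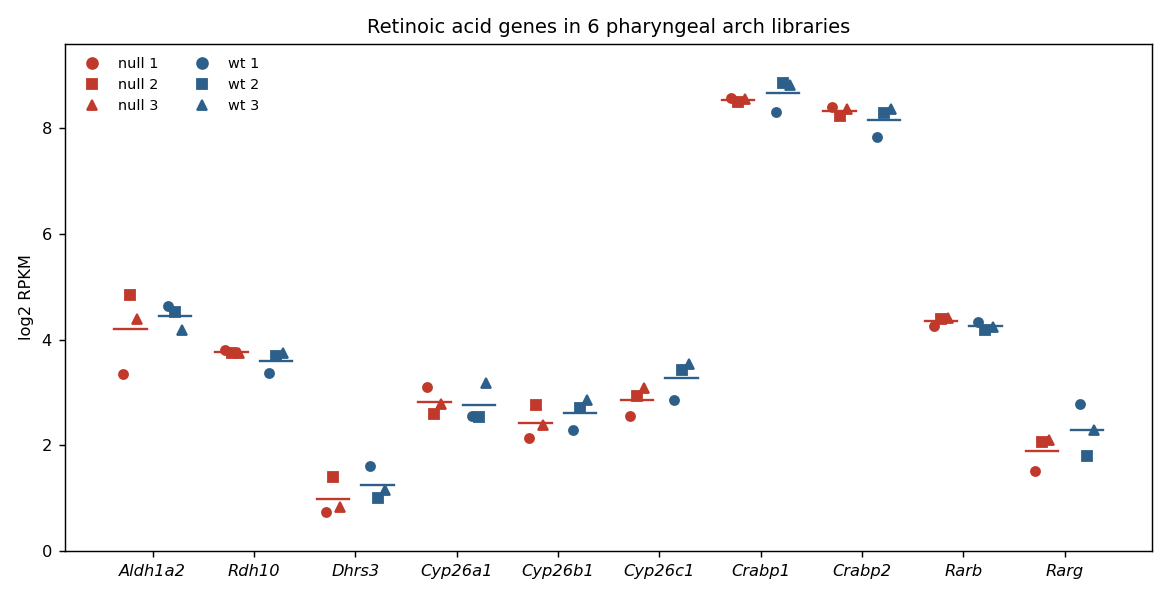
Level of each retinoic acid gene in log2 RPKM (vertical axis) in the 3 *Pax9*-null (red) and 3 wild-type (blue) libraries, with 1 point per library and a line at each group's mean. The genotypes overlap for every gene except *Rdh10*, and the widest spread within a genotype is that of *Aldh1a2* in *Pax9*-null embryos, from 3.36 to 4.85.

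Levels per length spanned a wide range. The binding proteins were highest, with means over the 6 libraries of 393 RPKM for *Crabp1* and 308 RPKM for *Crabp2*, and *Crabp1* was above *Crabp2* in each of the 6 libraries. Next came *Aldh1a2* (21.02 RPKM) and *Rarb* (19.8 RPKM), whose ranges over the libraries overlapped. *Rdh10* followed with 12.9 RPKM, its highest library (14.0 RPKM) below the lowest of *Rarb* (18.2 RPKM). The level of *Rarb* rests on a gene model of 3034 bases, against 5265 in GENCODE M21, so its place in this order depends on the model. *Cyp26c1* (8.62), *Cyp26a1* (7.04), *Cyp26b1* (5.84), *Rarg* (4.43) and *Dhrs3* (2.23 RPKM) completed the order, and each of these overlapped the gene before it. Within single libraries *Rdh10* was nevertheless above *Cyp26c1*, and *Rarg* above *Dhrs3*, in each of the 6.

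Retinoic acid receptors bind direct repeats of a short half-site, and classical elements of this kind are known at *Rarb* and *Cyp26a1*. The letters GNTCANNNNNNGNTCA, which hold both half-sites of the element named DR5, were searched on both strands of the RefSeq promoter windows (GRCm38.p6, 250 bases before to 50 after a start site). Windows were held for 8 of the 10 genes, 11 windows in all. The DR5 letters were in 2 of the 11, 1 of *Rarb* and 1 of *Cyp26a1*, and in 283 of all 32851 windows (0.861%). The closer-spaced element DR2 (GNTCANNNGNTCA, both strands) was in 0 of the 11 and in 1.117% of all windows. The letters of the 2 motifs were searched separately and matches may overlap. The 2 matching stretches are shown because both genes are known targets of retinoic acid and their RNA was measured here. Capitals mark the DR5 letters, on the gene's strand at *Rarb* (positions -52 to -37 from the start site, chr14:16575491-16575550, minus strand) and on the opposite strand at *Cyp26a1* (positions -32 to -17, chr19:37697754-37697807, plus strand). The *Rarb* window lies inside the gene as GENCODE M21 draws it.
Rarb: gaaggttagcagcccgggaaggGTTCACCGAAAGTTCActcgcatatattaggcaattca
Cyp26a1: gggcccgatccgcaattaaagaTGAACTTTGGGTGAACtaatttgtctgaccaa
A match is a description of the letters and does not show that a receptor was bound there in these embryos.

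*Aldh1a2* (ENSMUSG00000013584, chr9:71215789-71296243, plus strand, on GRCm38 in GENCODE M21, as for all genes below) encodes the main enzyme of retinoic acid synthesis in the early embryo. Its level was 10.2, 28.8 and 20.9 RPKM in *Pax9*-null replicates 1, 2 and 3, and 25.0, 22.9 and 18.3 RPKM in wild-type replicates 1, 2 and 3. The lowest and the highest library were both *Pax9*-null, and the wild-type libraries lay between them. In log2 RPKM the means were 4.20 ± 0.76 (SD, *n*=3) and 4.45 ± 0.23 (SD, *n*=3). The difference was -0.26 in log2 fold change, with a 95% interval of -1.04 to 0.53 and a limma adjusted *P* of 0.620. *Pax9*-null replicate 1 set the direction, since the log2 fold change was 0.16 without it (adjusted *P*=0.620 by limma), and -0.58 without *Pax9*-null replicate 2. The SD within genotypes, 0.564 on the log2 scale, was larger than that of 95.2% of the tested genes, whose median was 0.176. The gene was counted with 268 to 749 reads per library.

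Tissue markers were set beside the low *Aldh1a2* value of *Pax9*-null replicate 1, since somites, splanchnic mesoderm and the proepicardium are known to express the gene. The summed level of 5 somite markers, of 6 in the list (*Uncx* had no row), was 44.2 RPKM in this library and 46.2 to 59.4 RPKM in the other 5. The sum of 4 of 4 epicardial and proepicardial markers was 25.7 RPKM (15.1 to 28.8 in the others). That of 7 of 7 markers of the anterior second heart field and splanchnic mesoderm together was 58.1 RPKM (32.1 to 75.0 in the others). The lowest value of both was that of wild-type replicate 3, the library with little heart RNA. Of these sums, that of the somite markers was at its lowest in this library, by a smaller step than *Aldh1a2*. The part of tissue content in the spread of *Aldh1a2* was not tested. The 3 tested genes whose profile over the 6 libraries was nearest to that of *Aldh1a2*, looked up after its values were seen, were *Adcy8*, *Hoxa4* and *Gm43860*, at a root mean square distance of 0.15, 0.171 and 0.184 on the log2 scale. *Adcy8* (-1.51 to -0.09 log2 RPKM) and *Gm43860* (-1.58 to -0.60) lay near the filter of 0.5 RPKM, so their profiles are less sure.

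*Rdh10* (ENSMUSG00000025921, chr1:16105774-16133734, plus strand) encodes the retinol dehydrogenase that supplies most retinaldehyde in the embryo. Its level was 14.0, 13.4 and 13.5 RPKM in the *Pax9*-null libraries and 10.4, 12.9 and 13.3 RPKM in the wild-type libraries. All 3 *Pax9*-null values were above the wild-type values, but by a small step, and wild-type replicate 1 stood below the other 5. Its log2 fold change was 0.17 (95% interval -0.09 to 0.43, adjusted *P*=0.316 by limma), and an exact two-sided permutation test gave *P*=0.1, the smallest that 3 libraries against 3 allow. Without wild-type replicate 1 the log2 fold change was 0.06. With 548 to 698 reads per library and an interval that ends at 0.43, a rise of more than 1.35-fold lay outside it.

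*Dhrs3* (ENSMUSG00000066026, chr4:144892827-144928209, plus strand) encodes the reductase that turns retinaldehyde back into retinol, and it was the lowest of the 10 genes. Its level was 1.67, 2.63 and 1.79 RPKM in *Pax9*-null and 3.06, 2.01 and 2.21 RPKM in wild-type libraries, from 56 to 113 reads. The highest value was that of wild-type replicate 1, and *Pax9*-null replicate 2 was above both other wild-type libraries. This made a log2 fold change of -0.26 with a 95% interval of -0.82 to 0.29 and an adjusted *P* of 0.458 by limma. It was -0.09 without wild-type replicate 1 and -0.47 without *Pax9*-null replicate 2.

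The 3 Cyp26 genes encode cytochrome P450 enzymes that clear retinoic acid and keep it out of the anterior embryo. *Cyp26c1* and *Cyp26a1* are neighbours on chromosome 19, 4399 bases apart and on the same strand. *Cyp26c1* (ENSMUSG00000062432, chr19:37685581-37693398) had the largest difference of the 10 genes. Its level was 5.86, 7.63 and 8.52 RPKM in *Pax9*-null and 7.28, 10.8 and 11.7 RPKM in wild-type libraries, from 118 to 256 reads. Wild-type replicates 2 and 3 were above all *Pax9*-null libraries, while wild-type replicate 1 fell among them. The log2 means were 2.86 ± 0.28 and 3.28 ± 0.36 (SD, *n*=3 each), with a log2 fold change of -0.42, a 95% interval of -0.91 to 0.06 and an adjusted *P* of 0.190 by limma.

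*Cyp26c1* passed the threshold under 2 alternatives. Without wild-type replicate 1 the log2 fold change was -0.63 and the adjusted *P* 0.0737 by limma, in a fit that called 13.3% of all genes. With library weights, which let limma count a deviating library less and were lowest for wild-type replicate 1 (0.402 against 0.926 to 1.58 for the others), it was -0.61 with an adjusted *P* of 0.0523, and 32.3% of all genes were called. *Cyp26c1* is known from the anterior hindbrain. In wild-type replicate 1 the neural tube progenitor sum was the lowest of the 6 libraries, as given above, and the sum of 4 hindbrain markers of 6 (*En1* and *En2* had no row) was 6.70 RPKM against 8.43 and 9.02 RPKM in the other wild-type libraries and 6.404 to 7.41 RPKM in *Pax9*-null libraries. *Gbx2* was the largest part of the hindbrain sum in each library, at 3.49 RPKM in wild-type replicate 1. It was called lower in *Pax9*-null embryos (log2 fold change -0.43, limma adjusted *P*=0.0807). *Egr2* was higher but not called (0.77, limma adjusted *P*=0.212), and of the 4 markers 2 were lower and 2 higher. The paper shows reduced *Gbx2* in the pharyngeal endoderm of null embryos. The sum therefore does not stand for hindbrain content alone. The part of neural tube and hindbrain tissue in the level of *Cyp26c1* was not tested. The log2 fold change shrank to -0.29 without wild-type replicate 3 (adjusted *P*=0.387 by limma) and to -0.27 without *Pax9*-null replicate 1 (adjusted *P*=0.477 by limma). Both of these libraries had the highest weights, 1.585 and 1.529. The adjusted *P* over the 16 alternatives ran from 0.0523 to 0.477.

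*Cyp26a1* (ENSMUSG00000024987, chr19:37697798-37701536, plus strand), the member of the family that is itself known to be switched on by retinoic acid, had the smallest difference of the 10 genes. Its level was 8.55, 6.002 and 6.90 RPKM in *Pax9*-null and 5.89, 5.82 and 9.08 RPKM in wild-type libraries, from 122 to 202 reads. The highest library was wild-type replicate 3, and the next was *Pax9*-null replicate 1. In log2 fold change the difference was 0.06 with a 95% interval of -0.42 to 0.54 (adjusted *P*=0.857 by limma). Its sign turned when *Pax9*-null replicate 1 or wild-type replicate 1 or 2 was left out, and after a correction that takes out each library's own dependence on the length and GC content of genes, called the length and GC correction below.

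*Cyp26b1* (ENSMUSG00000063415, chr6:84571414-84593908, minus strand), the family member known from the hindbrain and limb, had a level of 4.38, 6.81 and 5.20 RPKM in *Pax9*-null and 4.90, 6.56 and 7.21 RPKM in wild-type libraries, from 271 to 485 reads. In both genotypes the lowest library was replicate 1. Its log2 fold change was -0.19 (95% interval -0.67 to 0.28, adjusted *P*=0.530 by limma) and became 0.16 after the length and GC correction.

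Taken as a sum, the 3 Cyp26 genes had 18.8, 20.4 and 20.6 RPKM in *Pax9*-null and 18.1, 23.2 and 28.0 RPKM in wild-type libraries. The *Pax9*-null libraries lay close together and within the wild-type range. *Aldh1a2* over this sum, a ratio of synthesis to breakdown RNA, was 0.545, 1.41 and 1.01 in *Pax9*-null and 1.38, 0.991 and 0.654 in wild-type libraries, so that the genotypes covered nearly the same range. The share of *Cyp26a1* in the sum was 45.5% in *Pax9*-null replicate 1, the library with the least *Aldh1a2*, and 25.1% to 33.5% in the other 5.

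**Figure D2:**
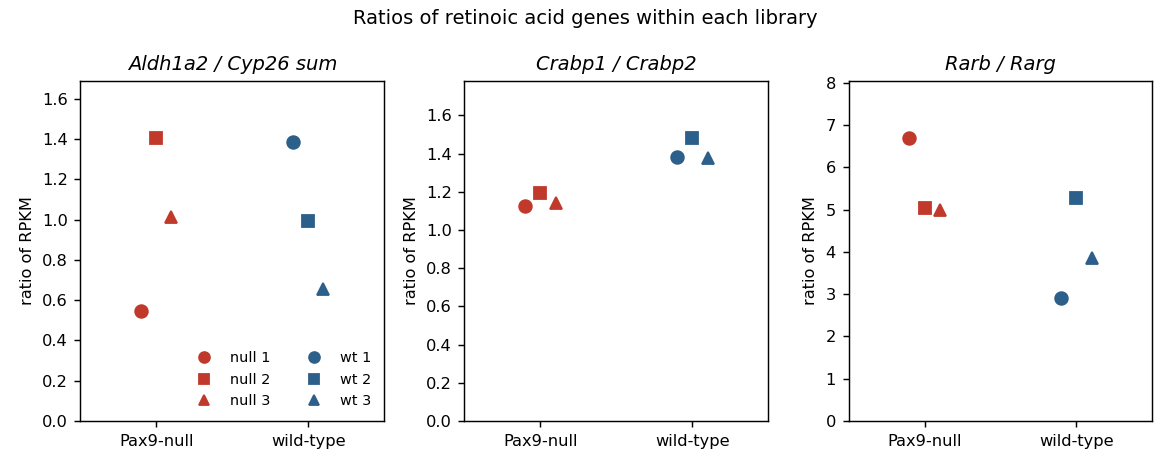
Ratios of RPKM within each library (vertical axes, linear from 0) for *Aldh1a2* over the summed Cyp26 genes, *Crabp1* over *Crabp2* and *Rarb* over *Rarg*, with 1 point per library. The genotypes overlap in the left and right panels, and in the middle one the *Pax9*-null libraries lie from 1.13 to 1.19 and the wild-type libraries from 1.38 to 1.48.

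*Crabp1* (ENSMUSG00000032291, chr9:54764748-54773110, plus strand), a binding protein known from migrating neural crest and the hindbrain, was the highest of the 10 genes. Its level was 383, 361 and 376 RPKM in *Pax9*-null and 317, 468 and 453 RPKM in wild-type libraries, from 3228 to 4632 reads. The *Pax9*-null libraries were nearly equal and lay between wild-type replicate 1 and the higher wild-type replicates 2 and 3. This gave a log2 fold change of -0.12 (95% interval -0.50 to 0.25, adjusted *P*=0.618 by limma).

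*Crabp2* (ENSMUSG00000004885, chr3:87948666-87953376, plus strand), which is known to hand retinoic acid to the nuclear receptors, had 340, 302 and 329 RPKM in *Pax9*-null and 229, 315 and 329 RPKM in wild-type libraries, from 3850 to 5475 reads. Wild-type replicate 1 was again the lowest, and the other 5 libraries lay close together. Its log2 fold change was 0.17 (95% interval -0.19 to 0.52, adjusted *P*=0.456 by limma), and it was 0.01 without wild-type replicate 1.

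The scaling of the libraries mattered for this pair. With quantile normalization, *Crabp1* was called lower in *Pax9*-null embryos, with a log2 fold change of -0.48 and an adjusted *P* of 0.0246 by limma, and *Crabp2* turned to -0.21 (adjusted *P*=0.205). That fit called 23.4% of all genes. After the length and GC correction the values were -0.49 for *Crabp1* (adjusted *P*=0.0976) and -0.25 for *Crabp2* (adjusted *P*=0.273), in a fit that called 3.72% of all genes. *Crabp1* has 802 and *Crabp2* 1322 exonic bases, the shortest of the 10 genes. The adjusted *P* of *Crabp1* ran from 0.0246 to 0.937 over the 16 alternatives.

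The ratio of *Crabp1* to *Crabp2* does not depend on the size of a library. It was 1.13, 1.19 and 1.14 in *Pax9*-null and 1.38, 1.48 and 1.38 in wild-type libraries, without overlap. On the log2 scale the difference of the ratio was -0.29, against -0.27 with quantile normalization and -0.24 after the length and GC correction, and a scaling that shifts all genes of a library alike cannot alter it. The ratio was formed with the values known, so it is given as a description without a test. The sum of 7 of 7 neural crest markers was 70.4 to 73.1 RPKM in *Pax9*-null and 62.1 to 64.9 RPKM in wild-type libraries. *Twist1*, called higher, carried this sum (54.9 to 57.4 against 42.4 to 45.5 RPKM), whereas 5 of the 7 markers were lower (median -0.21 on the log2 scale) and *Sox10* was called lower (-0.59, limma adjusted *P*=0.0828). The part of neural crest content in the ratio was not tested.

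*Rarb* (ENSMUSG00000017491, chr14:16430839-16819156, minus strand) encodes the receptor that is itself a classical target of retinoic acid through the element shown above. It was the steadiest of the 10 genes, with an SD within genotypes of 0.0766 on the log2 scale, below that of most tested genes (8.8% had a smaller one). Its level was 19.2, 21.1 and 21.4 RPKM in *Pax9*-null and 20.1, 18.2 and 18.9 RPKM in wild-type libraries, from 675 to 772 reads. Replicates 2 and 3 of *Pax9*-null were above the wild-type range and replicate 1 lay inside it. The log2 fold change was 0.11 with the narrowest interval of the 10 genes, -0.09 to 0.31 (adjusted *P*=0.393 by limma). Of its exonic bases in GENCODE M21, 34.1% overlap exons of *Top2b* on the opposite strand, and the counting was described with default settings, which take no strand into account. Reads in the shared part may then be mixed or left unassigned. The values of *Rarb* rest on a shorter gene model than that of M21, and the overlap in that model was not measured.

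*Rarg* (ENSMUSG00000001288, chr15:102234938-102257517, minus strand) encodes the receptor known from mesenchyme and cartilage precursors. Its level was 2.87, 4.18 and 4.28 RPKM in *Pax9*-null and 6.87, 3.46 and 4.91 RPKM in wild-type libraries, from 136 to 358 reads. The highest library was wild-type replicate 1 and the lowest *Pax9*-null replicate 1, and the others overlapped. Its log2 fold change was -0.39 (95% interval -1.02 to 0.23, adjusted *P*=0.323 by limma). It was -0.64 without wild-type replicate 2, the largest value over the alternatives (adjusted *P*=0.111), while it was -0.15 without wild-type replicate 1 and -0.04 after the length and GC correction. *Rarb* over *Rarg* was 6.70, 5.04 and 4.99 in *Pax9*-null and 2.92, 5.27 and 3.86 in wild-type libraries, with overlap through wild-type replicate 2.

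**Figure D3:**
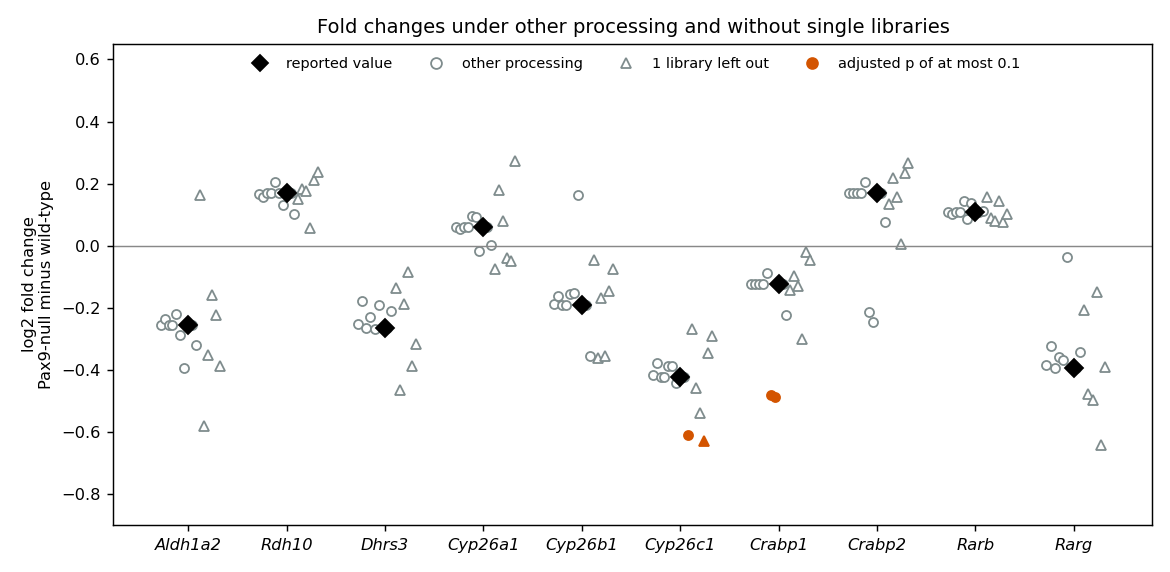
Log2 fold change of each gene (vertical axis, *Pax9*-null minus wild-type) as reported (black diamonds), under other processing of all 6 libraries (circles) and with 1 library left out (triangles), filled orange where the adjusted *P* by limma was at most 0.1. *Cyp26c1* and *Crabp1* each pass under 2 alternatives, in each case below 0, and *Aldh1a2*, *Cyp26a1*, *Cyp26b1* and *Crabp2* have points on both sides of 0.

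The rest of the pathway was taken from 5 lists with 64 genes, of which 48 were in the table and 45 were tested. By limma 8 of the 45 were called, 1 higher and 7 lower, with a median log2 fold change of -0.13, where 26.7% of all tested genes were called. The lower calls, 7 of 45, stood against 12% of all tested genes called lower, a share near the background. Of the 45, 0 were called after the length and GC correction, a fit that called 3.72% of all genes. Likewise 0 were called when *Pax9*-null replicate 1 or *Pax9*-null replicate 3 was left out, where 2.22% and 1.29% of all genes were called. When wild-type replicate 1 or 3 was left out the count was 4 each time, against 13.3% and 15.8% of all genes. *Pax9*-null replicates 1 and 3 were the libraries with the high erythroid sums given above, whose part in the pathway calls was not tested.

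Among the 4 other receptors, *Rara* and *Rxra* fell and *Rxrb* and *Rxrg* were not called. *Rxra* (chr2:27676440-27762957), the main partner of the Rar proteins, had 13.4, 14.0 and 13.8 RPKM in *Pax9*-null and 19.1, 17.0 and 20.1 RPKM in wild-type libraries (log2 fold change -0.44, SE 0.09, limma adjusted *P*=0.0369). *Rara* (chr11:98927818-98974942) had 4.66, 7.37 and 5.11 RPKM in *Pax9*-null and 8.19, 8.65 and 8.82 RPKM in wild-type libraries (log2 fold change -0.61, SE 0.17, limma adjusted *P*=0.0601). For both genes the 3 *Pax9*-null libraries lay below the 3 wild-type libraries, and *Rara* was lowest in *Pax9*-null replicates 1 and 3. The log2 fold change of *Rxra* was -0.43 and -0.45 when *Pax9*-null replicate 1 or 3 was left out, close to its reported value, with an adjusted *P* of 0.155 and 0.128 by limma. After the length and GC correction *Rxra* had a log2 fold change of -0.08 (adjusted *P*=0.616) and *Rara* of -0.25 (adjusted *P*=0.351). *Rxrb* had a log2 fold change of -0.09 (95% interval -0.36 to 0.19, adjusted *P*=0.630 by limma). It turned to 0.27 after that correction.

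*Aldh1a1* (chr19:20492715-20643465), a retinaldehyde dehydrogenase known from the eye and nervous system, fell with 2.67, 1.84 and 1.60 RPKM in *Pax9*-null and 5.16, 2.70 and 3.89 RPKM in wild-type libraries. This was a log2 fold change of -0.93 (SE 0.28, limma adjusted *P*=0.0671), and the lowest wild-type library was close to the highest *Pax9*-null one. The neuron markers had lower means in *Pax9*-null embryos too, as given above (median log2 fold change -0.66 over the 8). Wild-type replicate 1, with the most *Aldh1a1*, had the lowest neuron sum of the wild-type libraries (91.0 RPKM). The highest neuron sum (179 RPKM) was that of wild-type replicate 3. Among the *Pax9*-null libraries, replicate 1 had the highest neuron sum and the most *Aldh1a1*. The part of the neuron markers in the level of *Aldh1a1* was not tested. After the length and GC correction the log2 fold change of *Aldh1a1* was -0.98 with an adjusted *P* of 0.121 by limma. With 1 library left out the gene was called in 1 of 6 fits, with an adjusted *P* from 0.0404 to 0.183 by limma. No gene length searched gave whole reads for it, so its read numbers are not given. *Aldh1a3*, a further enzyme of this kind, was below the filter, at 0.132 to 0.367 RPKM. *Rdh14*, a retinol dehydrogenase of the same superfamily as *Rdh10*, rose (log2 fold change 0.54, adjusted *P*=0.0518 by limma) and had 0.15 after the correction (adjusted *P*=0.428).

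*Stra6* (chr9:58063788-58153996), the membrane receptor that takes up retinol from its carrier in the blood, fell. Its level was 1.34, 1.95 and 1.94 RPKM in *Pax9*-null and 3.33, 2.72 and 2.95 RPKM in wild-type libraries (log2 fold change -0.80, SE 0.20, limma adjusted *P*=0.0464). All *Pax9*-null libraries were below the wild-type ones, and after the length and GC correction the log2 fold change was -0.43 (adjusted *P*=0.174). Of the 18 receptor cofactors and competing receptors, 3 were called lower and 0 higher, against 12% and 14.7% of all tested genes. The lower ones included the coactivators *Ncoa2* (log2 fold change -0.45, limma adjusted *P*=0.0955) and *Crebbp* (-0.66, limma adjusted *P*=0.08). After the length and GC correction these were -0.14 (adjusted *P*=0.44) and -0.25 (adjusted *P*=0.29). Neither was called when *Pax9*-null replicate 1 or 3 or wild-type replicate 1 or 3 was left out.

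**Figure D4:**
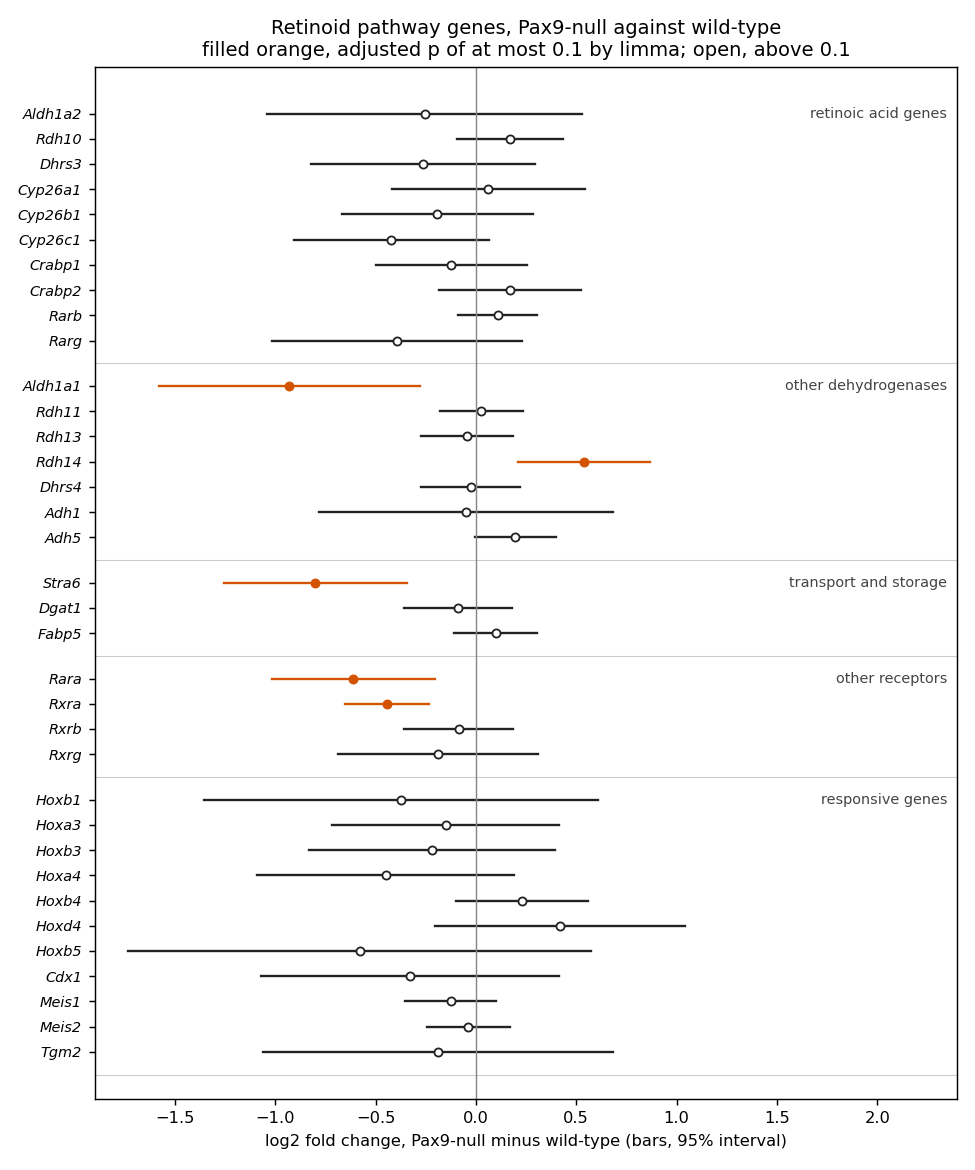
Log2 fold change (horizontal axis, *Pax9*-null minus wild-type) with its 95% interval for the 10 retinoic acid genes and genes of 4 further lists, filled orange where called by limma. All intervals of the 10 genes cross 0, whereas those of *Aldh1a1*, *Stra6*, *Rara* and *Rxra* lie below 0 and that of *Rdh14* above it.

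Genes known to respond to retinoic acid were read as a further measure of the pathway. Of 14 in the list 12 were tested and by limma 0 were called, with 0 at an unadjusted *P* of at most 0.05, where 26.7% of all tested genes were called. The median of their log2 fold changes stood at -0.17, and the smallest adjusted *P* was 0.279. The differences ran from -0.58 for *Hoxb5*, counted with 15 to 72 reads per library, to 0.42 for *Hoxd4*. The genotypes overlapped for all 12, while they did not for 41.9% of the tested genes. These genes, mostly of the Hox clusters, are also known as marks of position along the body axis.

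Several of them were low in *Pax9*-null replicate 1, the library with the least *Aldh1a2*. *Hoxa4* was 0.86 log2 RPKM there and 1.74 to 2.18 in the other 5 libraries. *Hoxb5* was -1.06 there, 0.76 and -0.48 in the other *Pax9*-null libraries and 1.04, -0.13 and 0.06 in the wild-type libraries. *Hoxb1* was 0.08, 1.78 and 0.21 in the *Pax9*-null libraries and 0.94, 0.98 and 1.27 in the wild-type libraries. In *Pax9*-null replicates 1 and 3, *Hoxb5* was counted with 15 and 23 reads and *Hoxb1* with 28 and 31. Their low values are therefore less sure. Others did not share this pattern, and *Hoxb4* (3.02) and *Meis2* (4.34) were near the middle of the 6 libraries in that replicate. Of the 12 genes, 4 had their lowest value there, but 3 had it in *Pax9*-null replicate 3, whose *Aldh1a2* was near the middle, and 2 in each of wild-type replicates 1 and 3. These examples were chosen after the values were seen. *Pax9*-null replicate 2, which had the most *Aldh1a2*, had the highest *Hoxb1*. This is a description of single libraries, with no test.

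**Figure D5:**
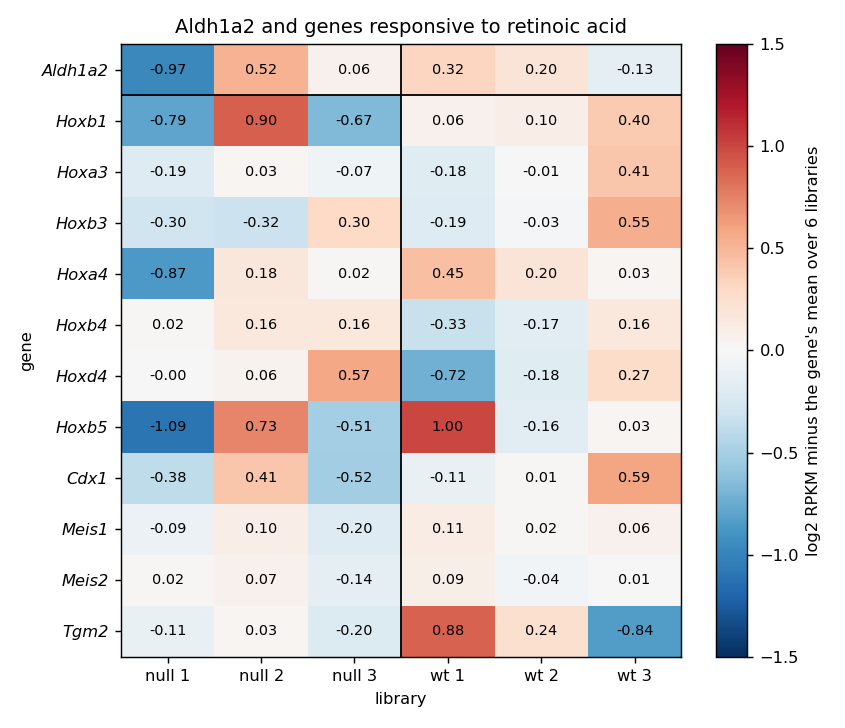
Level of *Aldh1a2* (top row) and of 11 genes known to respond to retinoic acid in each library, as log2 RPKM minus the gene's mean over the 6 libraries (colour and printed value). *Aldh1a2*, *Hoxa4* and *Hoxb5* are lowest in *Pax9*-null replicate 1, and *Hoxb1* is low in *Pax9*-null replicates 1 and 3. *Hoxb5* and *Hoxb1* had 15 to 31 reads in these replicates.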

How the data were processed

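RNA from the pharyngeal arch region of 3 *Pax9*-null and 3 wild-type E9.5 embryos was measured by RNA-seq. The labels and the paper differ on the protocol (sorted cells against whole dissected tissue), and the paper was followed. The authors trimmed the reads, kept unique and non-redundant ones, sub-sampled the libraries towards the smallest, aligned to GRCm38 with STAR and assigned reads to Ensembl genes with featureCounts defaults. The deposited values are log2 RPKM per gene and library, with a prior count of 0.5 inferred from the values.

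Whole reads, used only to give the depth behind a value, were recovered within 0.05 of a whole number for 82.7% of the values with GENCODE M21 gene lengths, and otherwise after a search of lengths. Effective library sizes were 11509905 to 11728255 in *Pax9*-null and 12352678 to 12692327 in wild-type libraries. *Cyp26a1*, *Rarb* and *Rarg* gave whole reads at 1773, 3034 and 4109 bases rather than at the M21 length, so their levels per length rest on other gene models than the coordinates given. Of the 10 genes, *Dhrs3* gave whole reads at 3 lengths and its read numbers are less sure.

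limma 3.58.1 (R 4.3.3) was fitted to the deposited log2 values with a variance trend, without a block, for genes that averaged 0.5 RPKM or more. It was tested on simulated data with changes larger than those of the 10 genes. That test does not show whether changes of their size would be found. *P* values were adjusted over all tested genes and an adjusted *P* of at most 0.1 was called. The study counts 3 embryos per genotype, and litters are not given in the sources used here. Alternatives were pseudocounts of 0.1 and 1, no filter, a mean of at least 5 RPKM, median centring, quantile normalization, a length and GC correction (each library's spline on these properties, with 5 degrees of freedom, subtracted), a replicate block, no variance trend, library weights, each library left out and a threshold of 0.05. The genes named are the 10, *Pax9*, the called genes of the pathway lists with *Rara*, *Rxra*, *Rxrb*, *Stra6* and *Aldh1a3*, and the nearest profiles of any of the 10 that was called or had an absolute log2 fold change of at least 0.5, which none had. Genes named outside this rule are said to be so, and some genes of the lists enter the counts but are not reported here. The 10 genes and all lists were chosen with earlier results of these data known.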

Additional observations from a re-analysis of the deposited data

How the results depend on the processing

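The count of genes called, 3611, fell to 503 with the length and GC correction, to 1377 with the replicate block and to 1335 at an adjusted *P* of at most 0.05, and ran from 175 to 3578 with 1 library left out, lowest without *Pax9*-null replicate 3 (175) and replicate 1 (301). Of the 10 genes 0 were called, and 1 was called with quantile normalization, with the length and GC correction (both *Crabp1*) and with library weights (*Cyp26c1*), and 0 to 1 with 1 library left out. The 8 calls of the pathway lists became 5 at a mean of at least 5 RPKM, 0 with the length and GC correction, 4 with the replicate block and 2 at 0.05, and 0 to 9 with 1 library left out. Without *Pax9*-null replicate 1 or 3 the count was 0, and the cause was not tested.

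Log2 fold changes turned sign with the length and GC correction for *Cyp26a1* (-0.018), *Cyp26b1* (0.16), *Crabp2* (-0.25) and *Rxrb* (0.27), and with quantile normalization for *Crabp2* (-0.21). With 1 library left out that of *Aldh1a2* ran from -0.58 to 0.16, positive without *Pax9*-null replicate 1, and that of *Cyp26a1* from -0.075 to 0.27, negative when *Pax9*-null replicate 1 or wild-type replicate 1 (-0.04) or 2 (-0.048) was absent. Of the values of the 10 genes under alternatives, 146 kept their sign and their side of the threshold and 4 kept their sign and passed it. *Dhrs3* and *Rarg* were below a mean of 5 RPKM. The deviations of same-numbered libraries from their genotype means had correlations of -0.02, -0.17 and 0.26, and not every library was nearest to its own number. With 3 libraries per genotype this cannot show whether the numbers mark a pairing, and the main fit did not use them as one. With the replicate block the smallest adjusted *P* of the 10 genes was 0.104 by limma, for *Cyp26c1*. The smallest counts behind the 10 genes were those of *Dhrs3*, at 56 to 113 reads per library.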
